A study of Homo sapiens with 6 samples.

Results

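The 44 genes described here lie side by side on the short arm of human chromosome 8, from LOXL2 to DUSP26, in bands 8p21 to 8p12. They were listed by position because several genes of the stretch were known, from earlier results of these data, to be much higher in mutant cells. Their levels are therefore a description, and no level or difference below carries a test made here. All 44 were found among the 56794 genes named in the authors' deposited table, and GENCODE release 29 placed all of them within 10.3 Mb (chromosome 8, 23297189 to 33600106, build hg38).

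The 6 RNA libraries came from HEK293, a line derived from human embryonic kidney. The 3 CASP8AP2 mutant libraries came from cells that express luciferase and whose CASP8AP2 gene was deleted with CRISPR, and the 3 parental libraries from the luciferase-expressing line with CASP8AP2 intact. Both groups were grown alike. The labels do not say whether the mutant cells were a single clone, or where the deletion lies.

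The table gave group means of an abundance scaled by transcript length, so levels of different genes can be compared. Levels below are these means with the authors' added 1 taken off, summed over a gene's transcripts. Log2 ratios compare mutant with parental levels, each with 1 added. A gene counts as measured when its abundance was at least 1 in either group, which held for 42 of the 44 members and for 14856 genes in all.

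Genes in one stretch of a chromosome share a position and need not share a task. The short arm of chromosome 8 is best known for being lost in many carcinomas, and it carries genes as unlike as a growth factor (NRG1), a DNA helicase (WRN) and an extracellular chaperone (CLU). HEK293 cells are aneuploid, so copy number along a chromosome can differ between sublines. Copy number was not measured in the data used here.

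CASP8AP2 RNA stood at 15.7 in mutant and 15.9 in parental libraries, which does not check the deletion. Estimated depth ran from 13280000 to 57440000 reads in the mutant and from 9177000 to 15290000 reads in the parental libraries. The 8 HEK293 markers looked up summed to 1079.6 in mutant and 629 in parental libraries and were not even. NEFL stood at 434 against 35.7, NEFM at 0.0690 against 8.63, KRT8 at 37.3 against 70.6 and VIM at 530.4 against 425. LHX1 (0.910 against 1.02) was near the lower limit. Of 14 markers of T cells, leukocytes, fibroblasts, endothelium and liver, 13 were under 1 in both groups, and the T cell genes CD3E, CD3D and CD2 were listed at 0. The exception was LUM, a fibroblast gene, at 1.06 in mutant and 1.49 in parental libraries. Nothing in the labels says that the libraries of a group came from separate cultures, so spread between them may be technical.

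Among the 42 measured members, 4 were at least 2-fold higher in the mutant libraries and 0 were at least 2-fold lower, with 1 added to both levels. With 0.1 added, or with the most abundant transcript of each gene only, 2 members were at least 2-fold lower. The 4 were CLU, RNF122, DUSP4 and SCARA5. Over all measured genes 1.51% were at least 2-fold higher and 1.61% at least 2-fold lower, with 1 added. The share of all genes at least 2-fold lower was 3.34% with 0.1 added and 1.72% with the most abundant transcript only. Since the stretch was picked for its raised genes, nothing is read from the count of 4. In these bulk libraries fewer cells that express a gene and less of its RNA per cell cannot be told apart. The next member below the 4 was ENTPD4, with a log2 ratio of 0.52, while SCARA5 as the lowest of the 4 had 1.54. At the other end MAK16 (-0.96) and ESCO2 (-0.90) lay just inside a 2-fold difference on this scale. Without the added 1 they were 2.22-fold and 2.17-fold lower.

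The other 38 measured members lay mostly lower in the mutant libraries. Of these, 28 were lower and 10 higher, their median log2 ratio was -0.28, and their summed abundance was 393 in mutant and 474 in parental libraries. Leaving out the 4 highest by this same ratio lowers such values by itself. With the 4 raised genes included, the median of the 42 was -0.26 (quartiles -0.50 and 0.07). The summed abundance of the 42 then went the other way, with 700 in mutant and 529 in parental libraries. The median over all genes was -0.01. Of the 42, 66.7% were lower, beside 50.6% of all genes and 69.3% of the 522 measured genes of chromosome 8. In 13 of the 42 the log2 ratio was within 0.25 of 0. The filter on abundance let SCARA5 pass through the mutant group alone and PTK2B through the parental group alone, and 40 members passed in both. NRG1 and DUSP26 did not pass.

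**Figure D1:**
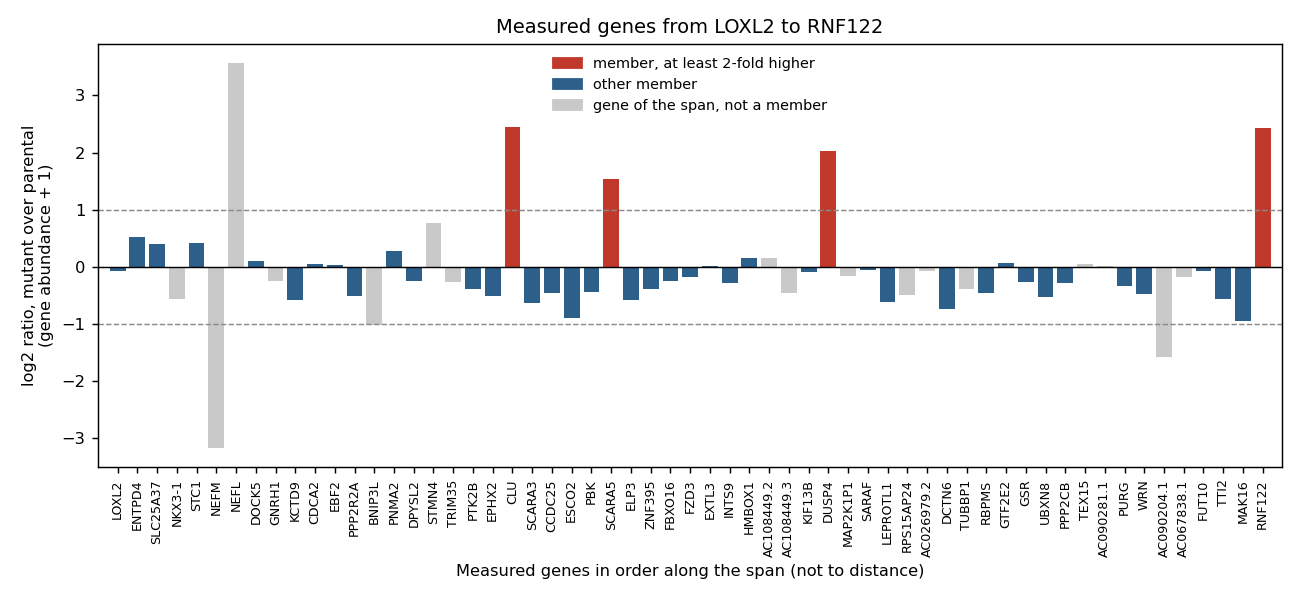
Log2 ratio of mutant over parental abundance (1 added to both) for the 59 measured genes of the span, in order along the chromosome but not to distance; members at least 2-fold higher are red, other members blue, genes that are not members grey, and dashed lines mark a 2-fold difference. CLU (2.44), SCARA5 (1.54), DUSP4 (2.02) and RNF122 (2.44) stand apart among neighbours that lie mostly below 0. Of the genes that are not members, NEFL (3.57) is the highest bar of the span and NEFM (-3.17) the lowest.

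The 4 raised members were not next to each other. CLU and SCARA5 were 0.255 Mb apart with 4 measured genes between them, all 4 lower in the mutant libraries (median log2 ratio -0.56). Between SCARA5 and DUSP4, 1.34 Mb apart, lay 10 measured genes, 7 of them lower, with none above 0.16. Between DUSP4 and RNF122, 4.20 Mb apart, lay 21 measured genes, 18 of them lower, with none above 0.07. The longest unbroken run of genes on one side of 0 was on the lower side, the 8 measured genes from the pseudogene MAP2K1P1 to RBPMS.

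CLU encodes clusterin, a secreted chaperone that binds misfolded proteins and complement, and was the most abundant member in the mutant libraries. It stood at 177 in mutant and 31.9 in parental libraries, 5.57-fold higher, on the minus strand (27596917 to 27615031). The difference was spread over its transcripts: 14 of 17 were higher, and the 3 that were lower had an abundance under 0.01 in both groups. CLU-202 had 59.7 in mutant and 9.52 in parental libraries, and CLU-209 had 50.8 against 9.68. CLU-216 had 9.91 against 0.711, so its share of the gene's abundance was 5.58% in mutant and 2.23% in parental libraries. CLU-204 went the other way as a share, with 8.66% against 14.8%, at levels of 15.4 against 4.73. The retained-intron transcripts CLU-211 (11.0 against 2.09) and CLU-203 (3.36 against 0.0871) were higher as well. In the authors' deposited table the p-value was 0.000321 for CLU-202 and 0.000140 for CLU-203. The adjusted p-value was 0.226 for CLU-202 and 0.190 for CLU-203. The measured neighbours on either side were lower in the mutant libraries: EPHX2 (log2 ratio -0.52), 51.4 kb away, and SCARA3 (-0.64), 18.8 kb away.

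**Figure D2:**
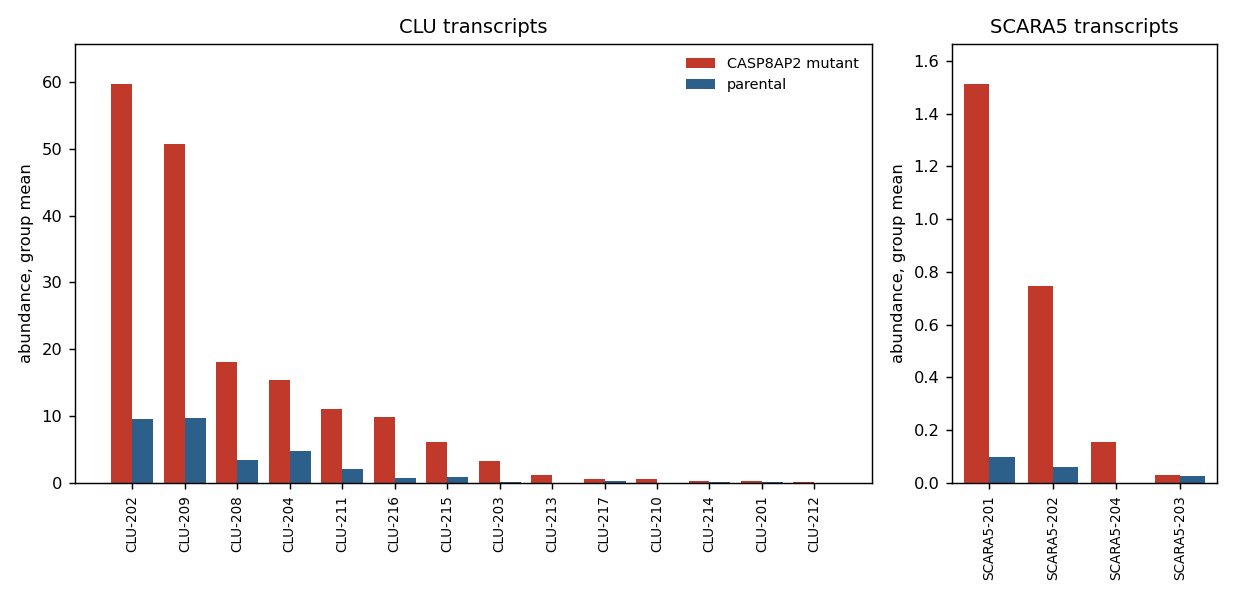
Abundance (group means, linear axes from 0) of each CLU and SCARA5 transcript with at least 0.01 in either group, mutant in red and parental in blue. CLU-202 and CLU-209 carry most of CLU in both groups, and SCARA5-201 (1.51 against 0.0970) and SCARA5-202 (0.748 against 0.0615) carry most of SCARA5 in the mutant libraries; library values were not recovered for these genes, so no error bars are drawn.

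RNF122 encodes a membrane-bound RING-finger ubiquitin ligase and has a single listed transcript, RNF122-201 (gene at 33547755 to 33567125, minus strand), which allowed whole reads to be recovered for each library. Read counts were 11427, 2979 and 5292 in the mutant libraries, from the deepest to the shallowest, and 840, 398 and 477 in the parental ones. In abundance these are 86.1, 86.0 and 172 in mutant libraries and 23.8, 14.9 and 22.5 in parental libraries. All mutant values lay above all parental values, and the shallowest mutant library stood highest. The means were 115 ± 49.9 in mutant and 20.4 ± 4.82 in parental libraries (SD, n = 3 each), 5.63-fold apart, so the gap between means was wider than the spread in either group. The p-value in the authors' deposited table was 0.00358, and the adjusted one 0.459. On its centromere side lies DUSP26, which was hardly detected. On the other side the overlapping genes TTI2, 34.2 kb away, and MAK16, 46.5 kb away, were lower, with MAK16 at 3.41 in mutant and 7.56 in parental libraries.

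DUSP4 encodes a nuclear phosphatase that switches off MAP kinases and is itself induced by ERK signalling. The gene lies at 29333064 to 29350668 on the minus strand. It stood at 12.3 in mutant and 2.27 in parental libraries, 5.42-fold higher, nearly all of it DUSP4-201 (12.1 against 2.27). DUSP4-202 had 0.221 in mutant libraries and was listed at 0 in parental ones. The parental libraries held 273, 181 and 121 whole reads of DUSP4-201, or abundances of 2.61, 2.28 and 1.93 (mean 2.27 ± 0.341, SD, n = 3). These reads rest on the parental mean alone, since the mutant libraries were not recovered singly. If these parental reads are right, the mutant mean and the p-value of 0.122 in the authors' deposited table fix the range of each. The highest then lay between 17.0 and 27.2 and the lowest between 2.19 and 4.46. On these values the mutant libraries differed widely from each other, and the lowest one may have overlapped the parental range.

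**Figure D3:**
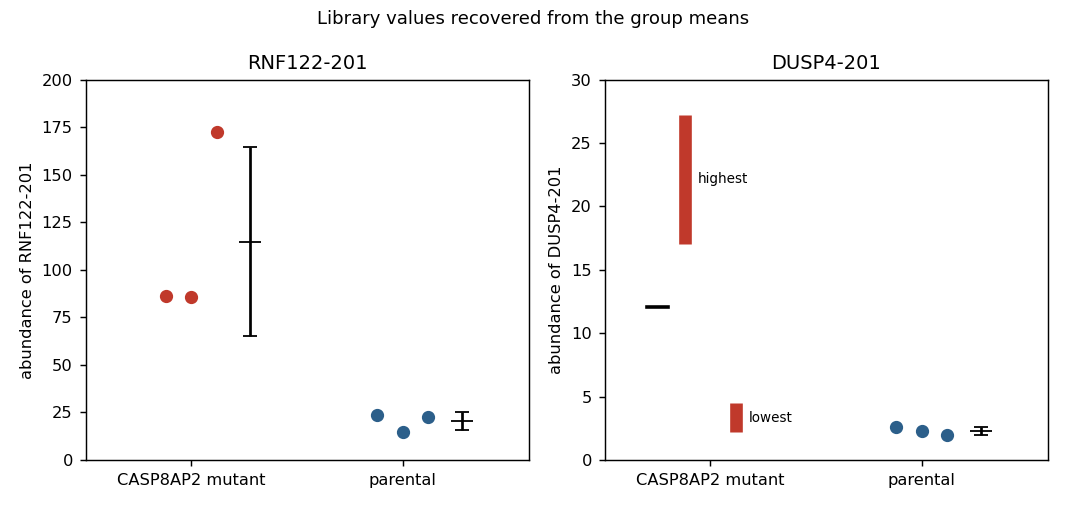
Left, abundance of RNF122-201 in each library (points) with the mean and SD (bars): mutant values of 86.0 to 172 lie above parental values of 14.9 to 23.8. Right, abundance of DUSP4-201: thick red bars are the ranges in which the highest (17.0 to 27.2) and the lowest (2.19 to 4.46) mutant library must lie if the parental reads are right. The black dash is the mutant mean of 12.1, and points with mean and SD are the parental libraries.

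SCARA5 encodes a scavenger receptor that takes up ferritin, at 27869882 to 27992727 on the minus strand. It stood at 2.45 in mutant and 0.184 in parental libraries, a 13.3-fold difference at low abundance, with a log2 ratio of 1.54 after 1 was added. All 4 of its transcripts were higher, though SCARA5-203 was close to even at 0.0311 against 0.0251. SCARA5-201 had 1.51 against 0.0970, SCARA5-202 had 0.748 against 0.0615, and SCARA5-204 had 0.156 while listed at 0 in the parental group. In the authors' deposited table the p-values of SCARA5-201, SCARA5-202 and SCARA5-204 were 0.0774, 0.0180 and 0.0105, and that of SCARA5-203 was 0.893. The adjusted ones were 0.703, 0.663, 0.582 and 0.963, in the same order. Its relative SCARA3, a scavenger receptor induced by oxidative stress, lies next to CLU and was lower, at 4.25 in mutant and 7.20 in parental libraries.

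None of the 4 raised genes overlapped another measured gene in the annotation. Their most abundant transcripts had GC contents between 51.3% and 55.5%, against a median of 46.8% in the other 38 measured members. Those 38 ran from 34.8% to 59.7%, a range that takes in the 4. Across all 14709 measured genes with a known GC content, Spearman's rho of the log2 ratio with GC content was 0.31, and across the 42 measured members it was 0.33. These points share the same 6 libraries, and the part of GC content in the raised genes was not tested. With the genome-wide GC trend taken off, 4 members were again at least 2-fold higher and the median of the 42 was -0.22.

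The other secreted and matrix proteins stood apart less. STC1, a secreted glycoprotein that affects calcium and phosphate handling, had 6.32 in mutant and 4.46 in parental libraries. LOXL2, a lysyl oxidase that crosslinks collagen, had 3.64 against 3.87. NRG1, the neuregulin ligand of ERBB receptors, was below the measured range with 0.132 against 0.698. Its transcript NRG1-202 had 0.0124 in mutant and 0.288 in parental libraries.

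Membrane proteins went both ways. SLC25A37, the mitochondrial iron importer mitoferrin, stood at 18.1 against 13.5. SARAF, which damps store-operated calcium entry, was among the most abundant members and differed little, with 51.1 against 53.4. LEPROTL1, a relative of the leptin receptor overlapping transcript, had 12.5 against 19.8, and the Wnt receptor gene FZD3 had 1.98 against 2.40. Of the enzymes of the Golgi, ENTPD4, which hydrolyses nucleotides, had 17.6 against 11.95. EXTL3, of heparan sulfate synthesis, had 12.19 against 12.03, and FUT10, a fucosyltransferase, 1.88 against 2.02.

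Apart from DUSP4, the signalling enzymes lay lower or near even. PPP2R2A, a regulatory subunit of protein phosphatase 2A, stood at 37.0 in mutant and 53.1 in parental libraries, and PPP2CB, a catalytic subunit of the same phosphatase, at 26.1 against 32.0. DOCK5, an activator of the GTPase Rac, had 2.62 against 2.39. PTK2B, the focal adhesion kinase relative PYK2, had 0.931 against 1.54. Within PTK2B the longer transcript PTK2B-203 held 43.9% of the abundance in mutant and 18.9% in parental libraries, and PTK2B-201 held 20.8% against 42.5%. These shares rest on levels under 1, with PTK2B-203 at 0.409 against 0.290 and PTK2B-201 at 0.194 against 0.654. DUSP26, another dual-specificity phosphatase gene, had 2 reads over the mutant libraries, both in the deepest, and 10 over the parental libraries, 8 of them in the deepest.

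Genes of chromosome cohesion and genome upkeep were lower in 4 of 5 cases, with a median log2 ratio of -0.49. With the GC trend taken off, that median was -0.33. Over all 42 measured members 66.7% were lower, and over chromosome 8 69.3%, so nothing is read from this count. ESCO2, the acetyltransferase that fixes cohesin on replicated DNA, stood at 2.93 in mutant and 6.34 in parental libraries. WRN, the helicase mutated in Werner syndrome, had 6.59 against 9.64. PBK, a mitotic kinase gene, had 26.6 against 36.6, and TTI2, a partner of PIK-related kinases, 3.64 against 5.86. CDCA2, which brings protein phosphatase 1 to mitotic chromosomes, had 6.22 against 5.96 and was the exception.

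Of the 9 genes of transcription and RNA, 6 were lower and 3 higher, the same 66.7% lower as over the 42 measured members. MAK16, of ribosome assembly, had the lowest log2 ratio of all 44 members. ELP3, the catalytic subunit of Elongator, stood at 6.23 in mutant and 9.81 in parental libraries, and RBPMS, an RNA-binding protein gene, at 8.21 against 11.7. ZNF395, a zinc finger gene, had 7.74 against 10.5. INTS9, of the Integrator complex, had 6.97 against 8.70, and PURG, of the PUR family of nucleic acid binding proteins, 1.37 against 2.02. The 3 on the higher side were close to even: GTF2E2 (11.7 against 11.1), of the general factor TFIIE, HMBOX1 (8.42 against 7.46), a telomere-binding homeobox gene, and EBF2 (2.06 against 2.01), a developmental transcription factor gene. Most of HMBOX1, 89.3% in mutant and 89.4% in parental libraries, was HMBOX1-209, which the annotation types as nonsense-mediated decay.

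Apart from RNF122 and PNMA2, the cytoskeletal, ubiquitin pathway and metabolic genes were lower in the mutant libraries. DCTN6, a dynactin subunit gene, stood at 15.9 in mutant and 27.2 in parental libraries, DPYSL2, of axon guidance, at 5.71 against 6.95, and KIF13B, a kinesin gene, at 3.06 against 3.36. PNMA2, a paraneoplastic antigen gene of neurons, was higher at 24.4 against 20.2. KCTD9, an adaptor of cullin ligases, had 5.20 against 8.26, CCDC25 10.2 against 14.4, and FBXO16, an F-box gene, 1.15 against 1.56. UBXN8, of degradation at the endoplasmic reticulum, had 6.10 against 9.30. Its coding transcript UBXN8-201 held 36.4% of the abundance in mutant and 61.2% in parental libraries. GSR, glutathione reductase, had 21.1 against 25.6, and EPHX2, soluble epoxide hydrolase, 1.57 against 2.69.

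**Figure D4:**
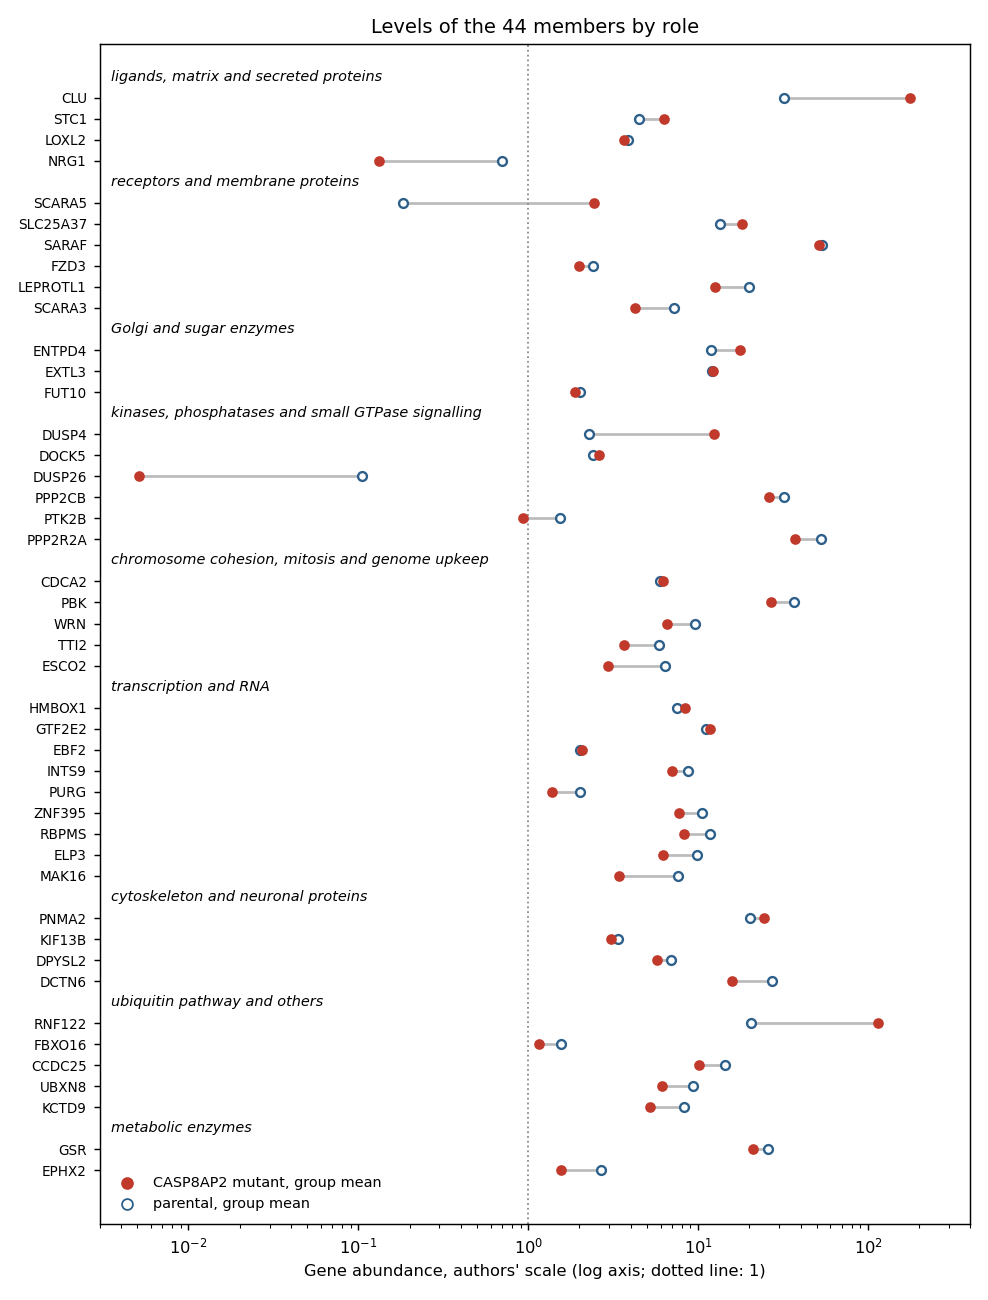
Gene abundance (group means on the authors' scale, log axis) of all 44 members, grouped by role, with mutant as filled red and parental as open blue points; the dotted line marks the abundance of 1 used to call a gene measured. CLU, RNF122, DUSP4 and SCARA5 show wide gaps to the right, DUSP26 and NRG1 wide gaps to the left at low abundance, and most others a small gap to the left.

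The protocol in the labels names no strand-marking step, and reads from overlapping genes on opposite strands can then not be told apart. This touched 9 members, among them ESCO2, which overlaps CCDC25 and PBK, and MAK16, which overlaps TTI2. A further limit is that 9 members overlap a measured gene on the same strand, such as ZNF395 with FBXO16 and DCTN6 with LEPROTL1. Leaving out every member with a measured overlap gave a median log2 ratio of -0.23 and again 4 members at least 2-fold higher.

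The authors' deposited table called 0 of 340 tested member transcripts at an adjusted p-value under 0.05, against 0.0221% of all 140552 tested transcripts (0.0135% higher and 0.00854% lower). The smallest adjusted p-value was 0.190, that of CLU-203. At an unadjusted p-value under 0.05 stood 29 member transcripts of 18 genes, 19 higher and 10 lower. Of the 29, CLU alone held 9. Over all tested transcripts this share was 5.79%, with 3.3% higher and 2.48% lower. The choice of the stretch used this comparison, so nothing is read from these counts.

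Of 143 genes of the same span that are not members, 17 were measured, 12 lower and 5 higher, with a median log2 ratio of -0.25. At least 2-fold higher was 1 of the 17, and 3 were at least 2-fold lower. NEFL, the light neurofilament chain, stood at 434 in mutant and 35.7 in parental libraries. NEFM, the medium chain 31.9 kb away, stood at 0.0690 against 8.63, so the 2 neighbouring neurofilament genes lay at opposite ends of the span's range. BNIP3L, a mitophagy receptor gene, had 9.88 against 21.2, and the long non-coding RNA AC090204.1 had 3.003 against 10.9.

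The rest of chromosome 8 had about the same median as the members. It was -0.27 over 88 measured genes of the short arm before the span, -0.21 over 47 between the span and the centromere, and -0.22 over 328 of the long arm. Over all 522 measured genes of chromosome 8 it was -0.23, the lowest among 22 autosomes and the X chromosome. Chromosome 3 was close, at -0.21 over 812 genes, and chromosome 7 lay at -0.16. The medians ran up to 0.29 for chromosome 22. With the GC trend taken off, chromosome 8 was again the lowest of the 23, at -0.22, followed by chromosome 3 at -0.17 and chromosome 19 at -0.16. Lower in the mutant libraries were 28 of 42 members, 66 of 88 genes before the span, 28 of 47 after it and 228 of 328 on the long arm. At least 2-fold higher were 2.27% of the genes before the span, 2.13% of those after it and 2.13% of the long arm, beside the 9.52% of the members that their choice made high. At least 2-fold lower were 12.5% before the span, 4.26% after it and 3.66% of the long arm, beside 0% of the members. The 0% depends on the list, which leaves out NEFM, BNIP3L and AC090204.1, the 3 genes of the span that were at least 2-fold lower. These made up 17.6% of the 17 measured genes of the span that are not members. With 0.1 added, 2 members were at least 2-fold lower as well, beside 3.34% of all genes.

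**Figure D5:**
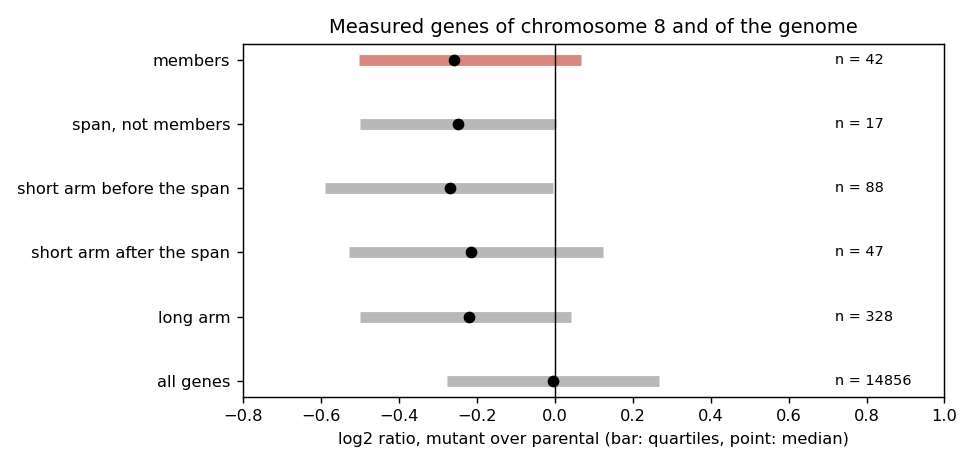
Median (point) and quartiles (bar) of the log2 ratio of mutant over parental abundance for the measured members, the other measured genes of the span, the rest of chromosome 8 in 3 segments, and all measured genes; n is the number of genes. All 5 groups from chromosome 8 have medians between -0.27 and -0.21, and all genes together -0.01.

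Position along the span was loosely related to the log2 ratio. Spearman's rho was -0.26 over the 42 measured members and -0.39 over the 38 without the raised genes, as a description, since all points share the same 6 libraries. LOXL2, the first member, lay at -0.07, the next 3, ENTPD4, SLC25A37 and STC1, lay between 0.40 and 0.52, and the members from GSR to MAK16 all lay lower.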

How the data were processed

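RNA from 3 CASP8AP2 mutant and 3 parental HEK293 libraries was prepared with an RNeasy kit, random primers and the NEBNext Ultra kit, per the labels' protocols. bcl2fastq, STAR and Partek and build hg38 are named in the submitters' processing notes, without versions or roles, and the labels name no poly(A) selection. The deposited table holds, for 203376 transcripts, the authors' group means of a signal scaled by transcript length to which 1 was added, their ratio and fold change, and p-values. Because 62824 transcripts have no comparison in it, the deposited p-value and mean columns were read as a score with gaps.

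Gene abundance was the sum over transcripts of the group mean minus 1, and log2 ratios were taken after adding 1. Genes under an abundance of 1 in both groups were left out of counts and medians. Positions came from GENCODE release 29, which matched 99.1% of transcripts. Since the table gives group means only, no test was made. Depth was estimated, and whole reads per library were recovered for 10 of 340 member transcripts, from the steps that single reads leave in the means. A solution was kept only where a pooled-variance comparison on log2 values gave the deposited p-value within 1e-06. For the parental libraries of DUSP4-201, which are not among the 10, that check could not be made, and the reads are the only whole-number solution of the parental mean (tolerance 1e-08). Recovery with the p-value check was tested on simulated data. Right recovery from the mean of 1 group alone was not. Recovered libraries are ordered by depth, since their replicate numbers are not known, and intervals of counting error were not computed.

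The members, role groups and marker lists were chosen with earlier results of these data known. The members named by rule were those with an abundance of at least 5 and at least a 2-fold difference, then the 2 most abundant and the 2 farthest from even of each role group. Other members are named so that all 44 are accounted for, and were chosen after their values were seen, as were the genes of the span that are not members. Alternatives were another filter, another added constant, a GC correction, and the most abundant transcript only, plus leaving out overlapping members, which was added after seeing the data.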

Additional observations from a re-analysis of the deposited data

How the results depend on the processing

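A median was taken as moved at a shift of at least 0.1 on the log2 scale, and a count at more than 1.5 times. The median of the measured members ran from -0.29 with 0.1 added to -0.19 with the most abundant transcript only, and the count at least 2-fold higher was 4 throughout, except 3 with an abundance of at least 5. The count at least 2-fold lower was 0, and became 2 with 0.1 added and 2 with the most abundant transcript only. Over all genes, 3.34% were at least 2-fold lower and 3.49% higher with 0.1 added. With the most abundant transcript only, 1.72% of all genes were at least 2-fold lower. For the other genes of the span, the median of -0.25 became -0.50 with an abundance of at least 5 and 0 with no filter, and the count at least 2-fold higher became 2 with 0.1 added, against 1. EXTL3, with a log2 ratio of 0.02, had -0.064 after the GC trend was taken off. The GC trend moved 11 other named members, adding 0.1 moved 7, and the most abundant transcript alone moved 5. The cause was not tested. No transcript of the members was called in the authors' deposited table at an adjusted p-value under 0.01 either. No paired analysis was possible because the table holds group means and no column of a single library, and leaving out replicates was not run for the same reason. Depth limits DUSP26, with 10 reads over the parental libraries, most, and NRG1 and parental SCARA5, both under an abundance of 1, are low as well.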
